A study of Mus musculus with 12 samples.

Results

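Cholesterol synthesis and sterol transport were followed through 28 mouse genes, named as a list of symbols and found as 1 row each among the 55536 genes of the count table. They were 8 genes of the isoprenoid steps, 10 of the later sterol steps, 5 regulators and 5 genes of sterol transport and oxysterol formation. All 28 passed the filter on low counts, which kept 19800 genes. The samples were total RNA of pancreatic islets, the hormone-secreting cell clusters of the pancreas, from 16-week-old mice on a mixed C57BL/6J background, in 12 libraries with 3 in each of 4 groups. The first group was PTPN2 -/- islets, called bKO in the protocols, kept for 24 h with IL-1beta, IFN-gamma and TNF-alpha. The second was PTPN2 -/- islets without treatment. The third was control islets with the same cytokines for 24 h, titled PTPN2 +/+ and given the genotype fl/fl. The fourth was untreated control islets. The sources used here give neither the Cre line behind the bKO label nor a vehicle for the untreated islets. The protocol names 3 mice per genotype and does not say which libraries share a mouse, so p-values measure the spread between these libraries, which may in part be technical.

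Cholesterol is built from acetyl-CoA, which is joined and reduced to mevalonate, phosphorylated and decarboxylated to isoprenoid units, and condensed to squalene. Squalene is oxidized and closed to lanosterol, whose methyl groups and double bonds are then rearranged. The genes of these enzymes are controlled by SREBP transcription factors. When sterol is low, Scap carries SREBP from the endoplasmic reticulum to the Golgi for cleavage, and when sterol is high, the Insig proteins hold Scap back. Excess sterol leaves cells through ABC transporters whose genes are switched on by LXR receptors. In beta cells, cholesterol load and the loss of its export are known to alter insulin secretion.

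The libraries held 47064061 to 107515565 counts. Ptpn2, the gene named in the genotype, was no lower where the label reads bKO. It had 111, 84.2 and 107 CPM (counts per 1000000 of scaled library size) in treated libraries labelled bKO, against 88.9, 90.4 and 78.3 CPM in treated control libraries. Without cytokines it had 36.7, 33.8 and 35.5 CPM in libraries labelled bKO, against 30.3, 31.5 and 31.4 CPM in control libraries. The count does not say which exon was deleted, so this total over the gene is no check of a short deletion, and the genotype is given throughout as a label. All 10 defining beta cell markers were present in every group, with summed levels of 90117 to 177720 CPM over the treated libraries of both genotypes, most of it from Ins1 and Ins2. In bulk RNA such as this, fewer cells of a type and less RNA per cell cannot be told apart.

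One library stood farthest from its group and touches many of the values below. It was replicate 2 of the treated bKO-labelled islets. Its 8 stellate cell and pericyte markers summed to 8296 CPM, against 3332 and 3143 CPM in the other libraries of its group, and its 6 ductal markers to 6092 CPM, against 1903 and 2756 CPM. Its beta cell markers summed to 90117 CPM, the lowest of the 12 libraries. In this library 23 of the 28 sterol genes lay above the mean of the other 2 libraries of the group, and so did 10013 of the 19800 genes tested. The largest gaps were in Tm7sf2 (log2 1.49), Ch25h (1.43), Cyp51 (1.32), Acat2 (1.19), Idi1 (1.15), Mvk (1.13) and Stard4 (1.06). Abcg1 went the other way (-0.83), and Fdft1, Sqle, Pmvk, Msmo1, Ebp and Abca1 lay within 0.1 of the others. The part of the other cell types in these gaps was not tested, and calls that change without this library are given beside the gene.

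**Figure D1:**
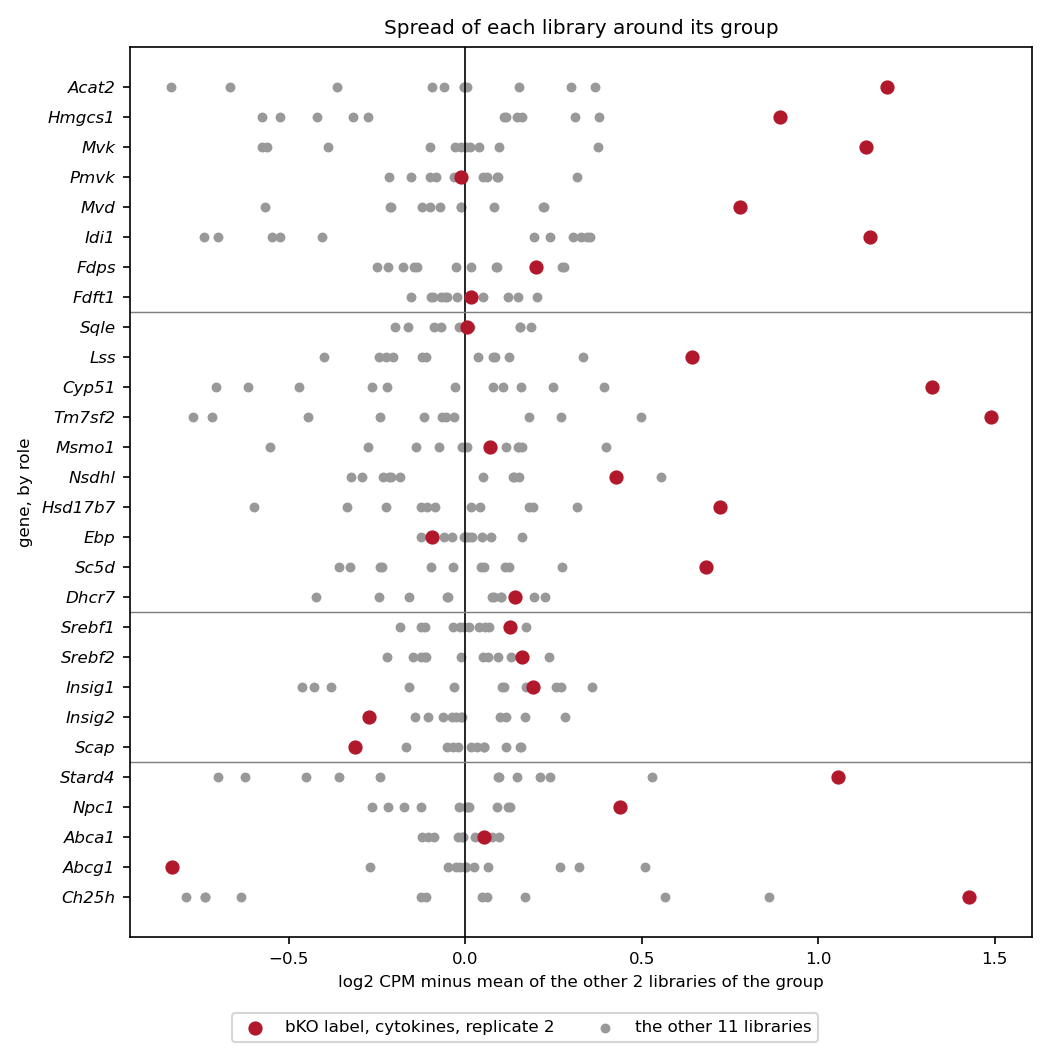
Difference of each library from the mean of the other 2 libraries of its group, in log2 CPM (x axis), for the 28 genes by role (y axis), with replicate 2 of the treated bKO-labelled islets in red and the other 11 libraries in grey. The red points of Tm7sf2 (1.49), Ch25h (1.43) and Cyp51 (1.32) lie farthest to the right, and that of Abcg1 (-0.83) lies to the left of all others in its row.

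Promoter sequence was at hand for 22 of the 28 genes, from the RefSeq table of GRCm38.p6, and was searched over the 250 bases before each start on both strands. Abcg1, Fdft1, Fdps, Npc1, Sqle and Stard4 had no entry. CCAAT, the box bound by NF-Y, a partner of SREBP on sterol genes, was found in 18 of 22 genes (81.8%), against 37.5% of the 27025 genes in the table. The longer form of the sterol regulatory element, TCACNCCAC, was in 1 of 22 (Hmgcs1), against 1.22% of all genes. A shorter form, TCACCCC, which the longer one holds where its N is a C, was in Hmgcs1, Srebf2 and Insig2, against 4.91% of all genes. A strict form of the LXR element, an exact direct repeat of AGGTCA with 4 bases between, was in 0 of 22, against 0.0148% of all genes (4 genes). A string this rare could hardly be met in 22 promoters, and looser forms were not searched. Its absence thus does not show that a gene lacks an LXR element. A match is a run of letters and not a measured binding site. The short form and the promoters printed here were chosen after the matches were seen. Hmgcs1 and Srebf2 are shown for their sterol elements, and Mvd and Pmvk as neighbouring steps whose RNA moved in opposite directions. Ebp is shown as the only one of the 28 genes that edgeR called between genotype labels, with cytokines. That call was lost in 10 of the 12 fits that left out 1 library. Capitals mark the matches, each sequence reads 5′ to 3′ along its gene, and bases inside an annotated exon are left off.
Hmgcs1 promoter, chr13:119690101-119690350, forward strand: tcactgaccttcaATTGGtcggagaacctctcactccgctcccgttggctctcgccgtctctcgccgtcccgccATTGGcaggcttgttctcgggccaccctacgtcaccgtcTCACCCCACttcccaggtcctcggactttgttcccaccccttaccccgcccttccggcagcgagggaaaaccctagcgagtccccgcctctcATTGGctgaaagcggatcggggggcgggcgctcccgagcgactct
Srebf2 promoter, chr15:82147019-82147180, forward strand: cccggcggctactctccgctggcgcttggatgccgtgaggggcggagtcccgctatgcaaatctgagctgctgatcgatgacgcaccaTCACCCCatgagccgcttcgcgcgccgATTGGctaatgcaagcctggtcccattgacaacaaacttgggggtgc
Mvd promoter, chr8:122443423-122443672, reverse strand: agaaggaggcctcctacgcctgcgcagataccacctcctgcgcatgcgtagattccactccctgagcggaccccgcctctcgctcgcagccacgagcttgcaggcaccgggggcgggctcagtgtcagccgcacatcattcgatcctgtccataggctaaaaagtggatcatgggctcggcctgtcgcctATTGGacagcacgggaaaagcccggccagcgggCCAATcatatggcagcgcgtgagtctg
Pmvk promoter, chr3:89454291-89454540, forward strand: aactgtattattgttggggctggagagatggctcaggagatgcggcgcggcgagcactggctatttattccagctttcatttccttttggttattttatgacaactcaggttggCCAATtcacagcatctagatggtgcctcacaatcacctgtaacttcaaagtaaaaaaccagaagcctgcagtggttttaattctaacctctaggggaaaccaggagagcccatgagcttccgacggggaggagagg
Ebp promoter, chrX:8193513-8193762, reverse strand: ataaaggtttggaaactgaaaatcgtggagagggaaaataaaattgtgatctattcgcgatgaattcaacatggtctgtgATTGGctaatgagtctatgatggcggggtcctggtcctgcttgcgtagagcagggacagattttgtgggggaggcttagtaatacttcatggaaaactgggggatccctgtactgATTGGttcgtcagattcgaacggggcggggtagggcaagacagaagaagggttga
The runs of CCAAT or its complement ATTGG lay on both sides of the response, in the promoter of Mvd, which rose, and in that of Pmvk, which fell. With the box in 18 of 22 genes, most such pairs would show this, so it does not bear on the response.

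The first comparison asked how 24 h of cytokines changed these genes, within each genotype. Of the 28 genes, 10 rose and 6 fell in islets labelled bKO, and likewise 10 rose and 6 fell in control islets, at an adjusted p below 0.05. This was 57.1% of the genes in both, against 62.4% of all genes tested in islets labelled bKO (28.8% higher and 33.6% lower) and 60.6% in control islets (26.8% higher and 33.9% lower). The share of sterol genes called was thus close to the share of all genes. In 8 genes the call was higher in both genotypes, in 4 it was lower in both, and 8 genes were called in neither. The median log2 fold change of the 28 genes was 0.17 in islets labelled bKO, where that of all genes was -0.06. In control islets the 28 genes had a median of 0.09 and all genes one of -0.10. Under library totals alone both medians turned negative, at -0.06 and -0.13, while that of all genes fell to -0.29 in islets labelled bKO and -0.33 in control islets, so the sign of the median rests on the scaling. Without replicate 2 of the treated bKO-labelled islets, 10 genes were higher and 9 lower in islets labelled bKO, and 13 were higher and 6 lower in control islets. Without replicate 2 of the untreated controls 6 were higher in control islets, and without replicate 1 or 2 of the treated controls 3 were lower. Groups did not overlap in 14 of 28 genes in islets labelled bKO and in 18 of 28 in control islets, against 65% and 70.5% of all genes.

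**Figure D2:**
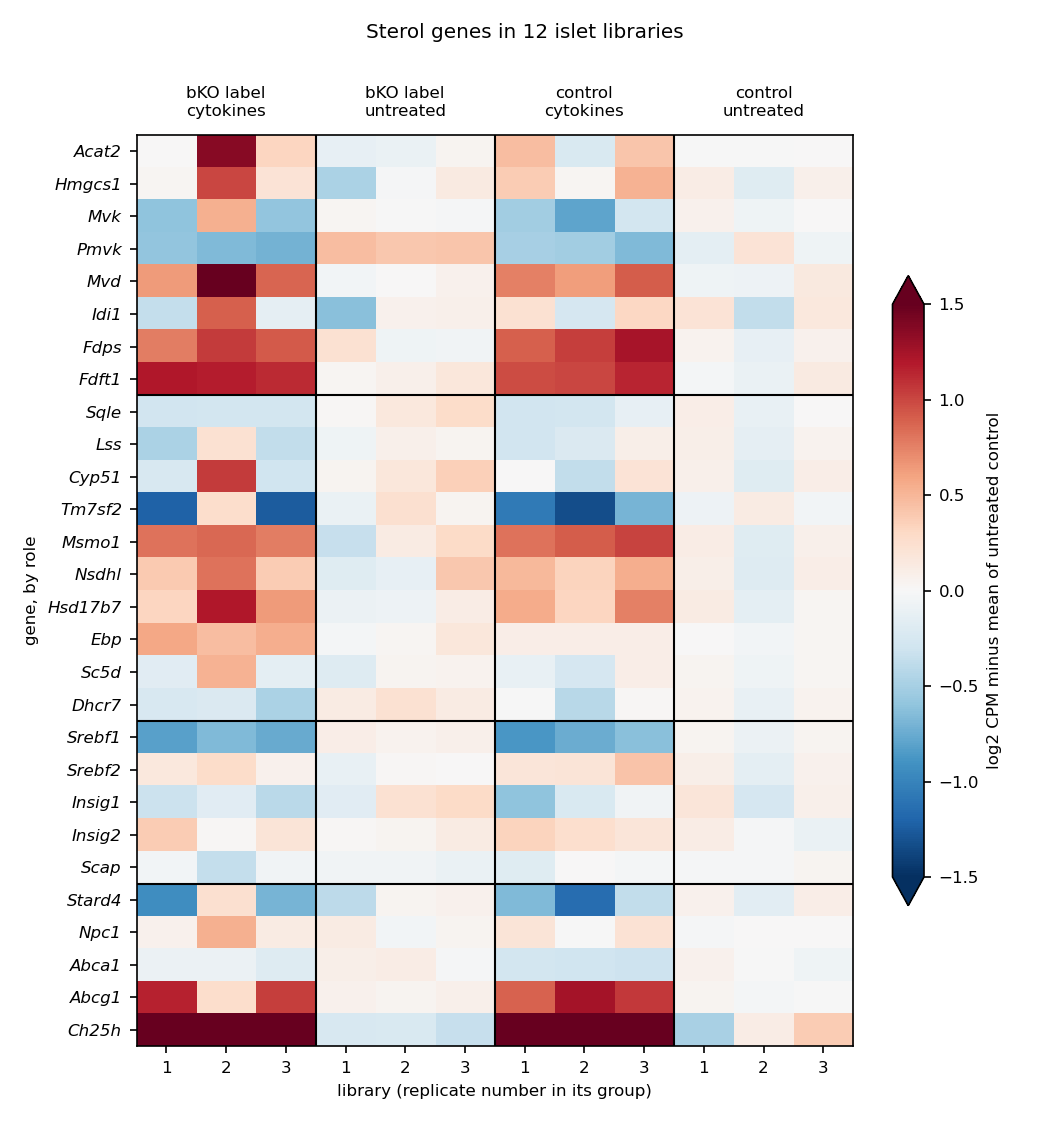
Level of the 28 genes (rows, by role, with lines between isoprenoid steps, sterol steps, regulators, and transport and oxysterol genes) in the 12 libraries (columns), as log2 CPM minus the mean of untreated control islets, from blue (lower) to red (higher) and capped at 1.5. Fdps, Fdft1, Mvd and Msmo1 are red in all 6 treated libraries, Pmvk and Srebf1 are blue in all 6, and the column of replicate 2 of the treated bKO-labelled islets differs from its neighbours in genes such as Acat2, Cyp51 and Tm7sf2.

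Among the isoprenoid genes, Fdft1, Fdps and Mvd rose in both genotypes, and Acat2 was called higher in islets labelled bKO. Fdft1, squalene synthase (chr14:63145150-63179578, GRCm38, reverse strand), had 139, 137 and 132 CPM in treated islets labelled bKO, against 61.6, 63.8 and 68.2 CPM in untreated ones. In control islets it had 119, 121 and 133 CPM with cytokines, against 59.2, 56.5 and 66.6 CPM without. Every treated library was thus above every untreated one, by 2.11-fold in islets labelled bKO (log2 1.08, SE 0.08, adjusted p = 3.5e-07) and 2.05-fold in control islets (log2 1.04, SE 0.08, adjusted p = 5.1e-07). Fdft1 shares 774 exonic bases, 18.3% of its own, with Ctsb on the opposite strand, and the sources used here do not give the strand used in counting. Ctsb, a lysosomal protease, averaged 2206 CPM in treated and 682 CPM in untreated islets labelled bKO, and 2374 and 560 CPM in control islets, so the share of Ctsb reads in the Fdft1 value cannot be told apart.

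Fdps makes farnesyl diphosphate, the substrate of Fdft1. It had 6.38, 7.74 and 7.11 CPM in treated islets labelled bKO, against 4.36, 3.57 and 3.59 CPM in untreated ones, and 6.95, 7.71 and 8.87 CPM in treated control islets, against 3.88, 3.44 and 3.89 CPM in untreated ones. The groups did not overlap in either genotype, and the rise was 1.84-fold (log2 0.88, SE 0.14, adjusted p = 0.00016) in islets labelled bKO and 2.1-fold (log2 1.07, SE 0.14, adjusted p = 3.9e-05) in control islets. Fdps has 5 processed pseudogenes of up to 98.87% identity, so its reads may be split among copies and its level is uncertain. Mvd, which decarboxylates mevalonate diphosphate (chr8:122433601-122443422), had 15.2, 28.3 and 17.9 CPM in treated islets labelled bKO, against 9.48, 9.74 and 10.2 CPM in untreated ones. In control islets Mvd had 16.5, 15 and 18.3 CPM with cytokines, against 9.30, 9.20 and 10.8 CPM without. Its log2 fold change was 1.06 (SE 0.19, adjusted p = 0.00046) in islets labelled bKO and 0.76 (SE 0.19, adjusted p = 0.0042) in control islets. Without replicate 2 of the treated bKO-labelled islets, which held the 28.3 CPM, the values were 0.81 and 0.83.

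Pmvk, the phosphomevalonate kinase that acts just before Mvd, went down (chr3:89454541-89469013). It had 32.5, 30.9 and 29.9 CPM in treated islets labelled bKO, against 67.0, 64.5 and 65.0 CPM in untreated ones, and 34.5, 34 and 30.8 CPM in treated control islets, against 44.2, 56.5 and 46.6 CPM in untreated ones. All treated libraries lay below all untreated ones, and the treated levels of the genotypes overlapped. The log2 fold change was -1.08 (SE 0.09, adjusted p = 1.4e-06) in islets labelled bKO and -0.57 (SE 0.09, adjusted p = 0.00021) in control islets.

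Acat2, which forms acetoacetyl-CoA, was called higher in islets labelled bKO, with 10.7, 27.4 and 13.3 CPM in treated libraries, against 9.77, 9.93 and 11 CPM in untreated ones (log2 0.75, SE 0.29, adjusted p = 0.041). The groups overlapped, and the call was lost in 8 of the 12 fits that left out 1 library, among them the one without the library of 27.4 CPM (log2 0.30, adjusted p = 0.14). It was also lost under library totals alone, in the compared groups only and with the replicate block (adjusted p = 0.15, 0.089 and 0.077). Acat2 shares 1477 aligned bases at 97.7% identity with Acat3 and 445 at 98.7% with Tcp1, and both of these rose in both genotypes, so its reads are uncertain. Hmgcs1, HMG-CoA synthase, had 74.4, 147 and 83.8 CPM in treated islets labelled bKO, against 52.7, 71.8 and 80.1 CPM in untreated ones, and was not called in either genotype. In islets labelled bKO Hmgcs1 was called higher in DESeq2 (log2 0.63, adjusted p = 0.017) and under DESeq2's size factors (log2 0.64, adjusted p = 0.027). It was also called there with no filter (log2 0.55, adjusted p = 0.048) and in 3 of the 12 fits that left out 1 library. Mvk, mevalonate kinase, and Idi1, the isomerase of the isoprenoid units, were, like Hmgcs1, not called in the main edgeR fit of all 12 libraries. The log2 values of Mvk and Idi1 were -0.11 and 0.37 in islets labelled bKO and -0.52 and 0.09 in control islets. In control islets Mvk was called lower under library totals alone (log2 -0.75, adjusted p = 0.034). In the compared groups only, Mvk was called lower there (log2 -0.46, adjusted p = 0.015) and Hmgcs1 higher (log2 0.38, adjusted p = 0.027). Without replicate 2 of the treated bKO-labelled islets, Mvk was called lower in both genotypes (log2 -0.54, adjusted p = 0.0022 in islets labelled bKO, and -0.46, adjusted p = 0.0026 in control islets) and Hmgcs1 higher in control islets (0.39, adjusted p = 0.036).

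**Figure D3:**
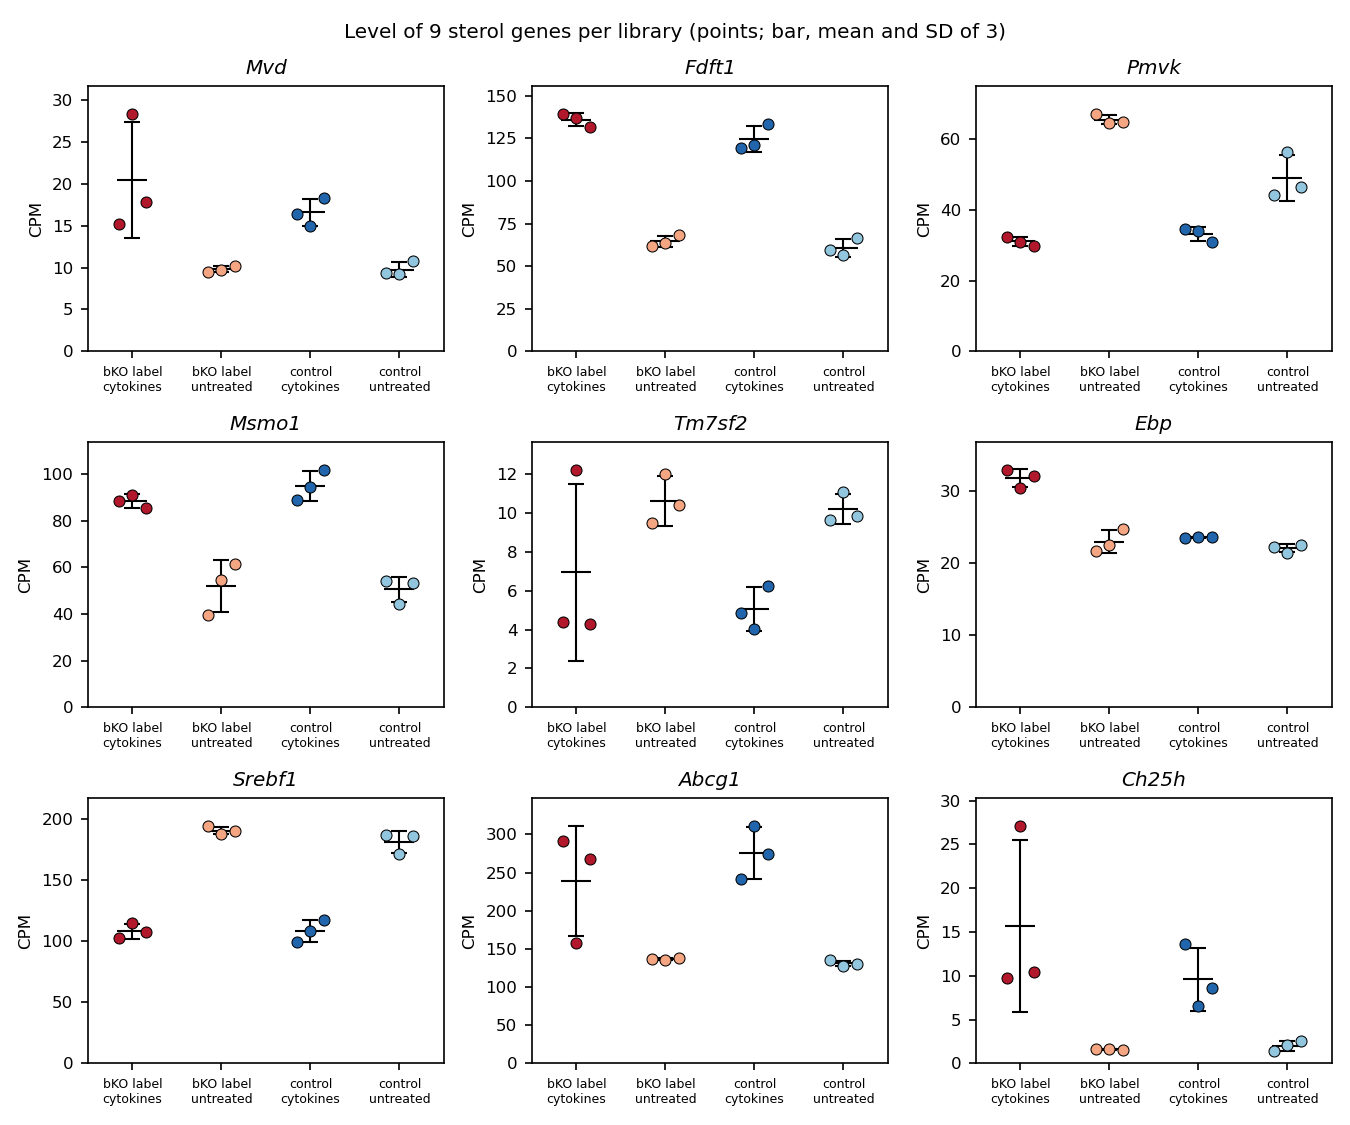
CPM per library (y axis, linear from 0) of 9 of the genes in the 4 groups (x axis), with points for libraries and bars for the mean and SD of 3. Mvd, Fdft1, Msmo1, Abcg1 and Ch25h are higher and Pmvk and Srebf1 lower in both treated groups, Ebp is higher in treated islets labelled bKO than in the other groups, and Tm7sf2 and Ch25h show 1 high library (12.2 and 27.1 CPM) in treated islets labelled bKO.

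In the sterol steps after squalene, 3 genes that act one after another in taking methyl groups off the sterol ring rose in both genotypes. Msmo1, the sterol C4-methyl oxidase (chr8:64718139-64733792), had 88.6, 91.2 and 85.3 CPM in treated islets labelled bKO, against 39.5, 54.7 and 61.4 CPM in untreated ones. Control islets had 88.8, 94.4 and 102 CPM of it with cytokines, against 54.2, 44.3 and 53.1 CPM without. Its rise was 1.7-fold in islets labelled bKO (log2 0.77, SE 0.14, adjusted p = 0.00047) and 1.88-fold in control islets (log2 0.91, SE 0.14, adjusted p = 0.00015), with no overlap between groups. Hsd17b7, the 3-ketosteroid reductase of this step, had 18.5, 34.1 and 23.1 CPM in treated islets labelled bKO, against 13.9, 14.1 and 16.0 CPM in untreated ones (log2 0.78, SE 0.19, adjusted p = 0.0038). In control islets Hsd17b7 had 21.7, 18.4 and 24.9 CPM with cytokines, against 16.1, 13.3 and 15.1 CPM without (log2 0.55, SE 0.19, adjusted p = 0.027). Nsdhl, the 3-beta-dehydrogenase between them, rose less firmly, by 0.48 (SE 0.17, adjusted p = 0.025) in islets labelled bKO, with overlapping groups, and by 0.45 (SE 0.17, adjusted p = 0.035) in control islets. The control libraries had 19.1 to 22.2 CPM of Nsdhl with cytokines and 13.3 to 16.3 CPM without. The call of Nsdhl in islets labelled bKO was lost under library totals alone (log2 0.26, adjusted p = 0.22), in the compared groups only (log2 0.49, adjusted p = 0.068) and in 2 of the 12 fits that left out 1 library. In control islets the calls of Hsd17b7 and Nsdhl were lost in 4 and 5 of the 12 fits that left out 1 library and under library totals alone (log2 0.32 and 0.22, adjusted p = 0.19 and 0.29).

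Ebp, the sterol isomerase that moves the ring double bond (chrX:8185329-8193512), rose in islets labelled bKO. It had 32.8, 30.4 and 32.1 CPM in treated libraries there, against 21.6, 22.5 and 24.7 CPM in untreated ones, a log2 fold change of 0.47 (SE 0.07, adjusted p = 1e-04). In control islets Ebp had 23.5, 23.6 and 23.6 CPM with cytokines, against 22.2, 21.4 and 22.5 CPM without (log2 0.10, SE 0.07, adjusted p = 0.23). The treated control libraries were above the untreated control ones by a small step that did not pass the test with all libraries. It passed without replicate 2 of the treated bKO-labelled islets (log2 0.17, adjusted p = 0.042), under DESeq2's size factors (log2 0.19, adjusted p = 0.045) and in DESeq2 itself (log2 0.18, adjusted p = 0.045).

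Other late steps fell or were not called. Sqle, squalene epoxidase, had 110, 111 and 111 CPM in treated islets labelled bKO, against 137, 151 and 163 CPM in untreated ones (log2 -0.44, SE 0.08, adjusted p = 0.00057). Control islets had 110, 111 and 123 CPM with cytokines, against 145, 125 and 135 CPM without (log2 -0.23, SE 0.08, adjusted p = 0.025), with no overlap in either genotype. This call in control islets was lost under DESeq2's size factors (-0.14, adjusted p = 0.15), in DESeq2 itself (-0.15, adjusted p = 0.17) and in the compared groups only (-0.17, adjusted p = 0.081). It was also lost in 5 of the 12 fits that left out 1 library, among them the fit without replicate 2 of the treated bKO-labelled islets (-0.16, adjusted p = 0.086). Dhcr7, which reduces 7-dehydrocholesterol to cholesterol, fell in islets labelled bKO, with 16.8, 17.1 and 14.3 CPM in treated libraries, against 21.6, 23.2 and 21.7 CPM in untreated ones (log2 -0.47, SE 0.12, adjusted p = 0.0047). In control islets its groups overlapped (log2 -0.12, SE 0.12, adjusted p = 0.38), and it was called lower under library totals alone (log2 -0.35, adjusted p = 0.028).

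Tm7sf2, a sterol C14 reductase (chr19:6062821-6068373), had 4.84, 4.04 and 6.26 CPM in treated control islets, against 9.63, 11.1 and 9.87 CPM in untreated ones (log2 -1.02, SE 0.34, adjusted p = 0.022). This call was lost in 3 of the 12 fits that left out 1 library (log2 -0.99 to -0.88, adjusted p of up to 0.079). In islets labelled bKO it had 4.38, 12.2 and 4.27 CPM with cytokines, against 9.47, 12 and 10.4 CPM without, and was not called (log2 -0.61, SE 0.34, adjusted p = 0.14). Of the 3 treated libraries labelled bKO, 2 lay at the level of the treated controls and replicate 2 at that of untreated islets. Without replicate 2 the fall was called there too (log2 -1.24, SE 0.17, adjusted p = 5.4e-05). Tm7sf2 shares 532 exonic bases, 12.1% of its own, with Vps51 on the same strand, which was not called in either cytokine comparison. Cyp51, the lanosterol demethylase, had 42.0, 103 and 40.3 CPM in treated islets labelled bKO, against 51.1, 55.8 and 63.5 CPM in untreated ones (log2 0.12, adjusted p = 0.74). Without the library of 103 CPM its direction turned and it was called lower (log2 -0.41, SE 0.14, adjusted p = 0.024). Lss, which closes squalene epoxide to lanosterol, was likewise called lower in islets labelled bKO only without that library (log2 -0.38, adjusted p = 0.0069, against -0.19 and 0.32 with it). Sc5d, the sterol C5 desaturase, was called in neither genotype, at 0.13 and -0.08.

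**Figure D4:**
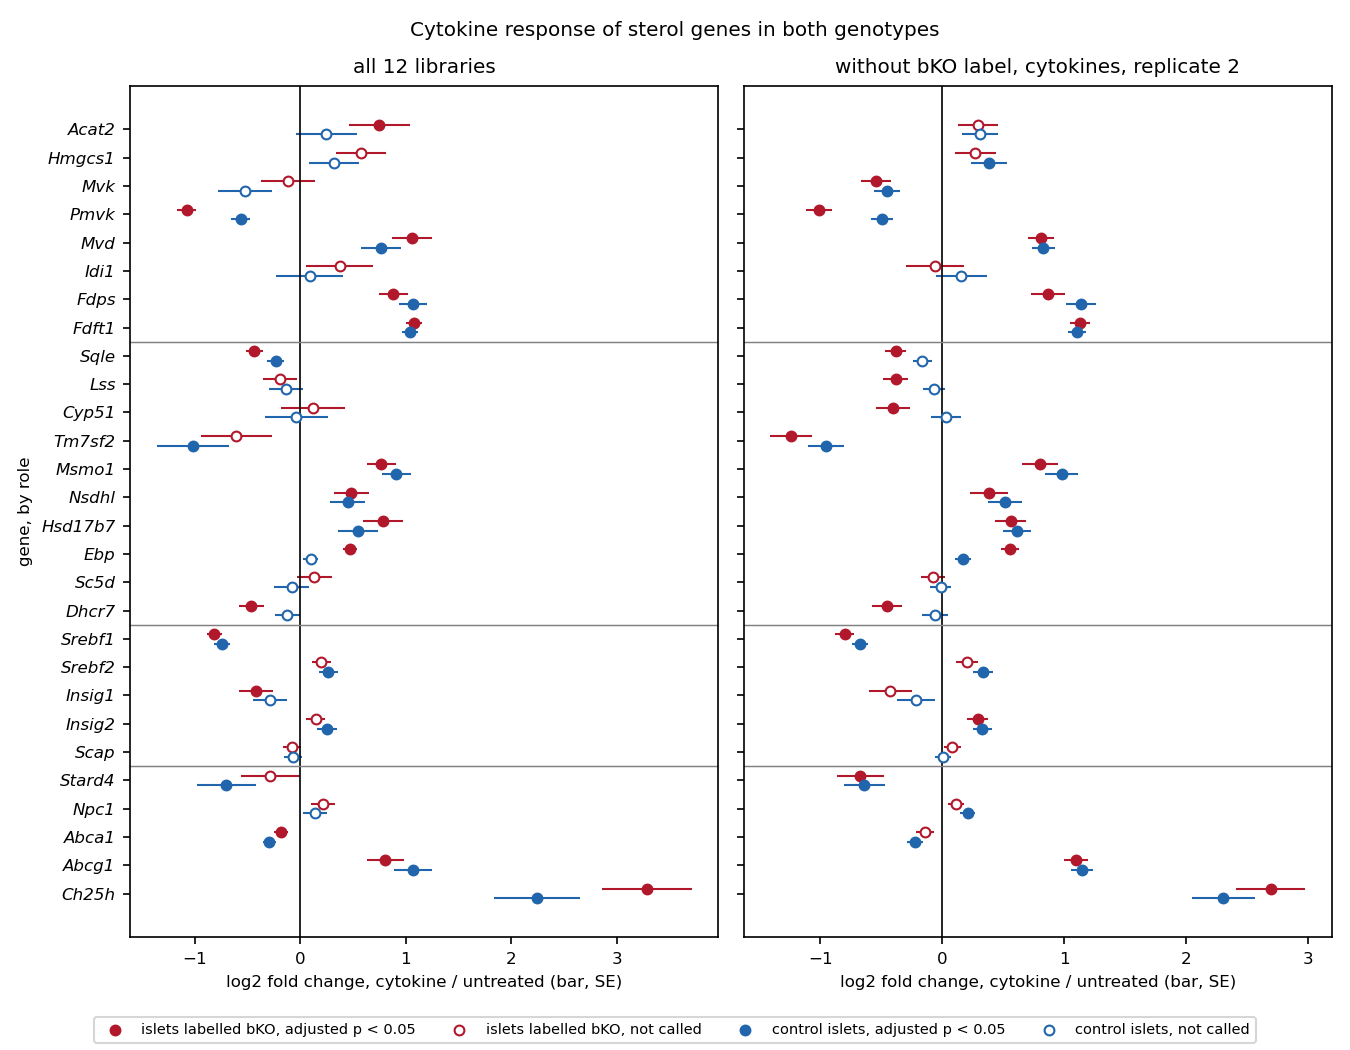
Log2 fold change of treated over untreated islets (x axis, bars of 1 SE) for the 28 genes by role (y axis), in islets labelled bKO (red) and control islets (blue), filled where the adjusted p was below 0.05, with all 12 libraries on the left and without replicate 2 of the treated bKO-labelled islets on the right. In the right panel the red and blue points of Tm7sf2 (-1.24 in red) and Mvk (-0.54 in red, -0.46 in blue) lie closer together than in the left one, and Pmvk, Ebp and Dhcr7 stay apart.

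The regulators moved in different directions. Srebf1, which encodes the SREBP-1 factors of lipid synthesis (chr11:60199089-60222581), had 103, 115 and 107 CPM in treated islets labelled bKO, against 194, 187 and 190 CPM in untreated ones. Control islets had 99.1, 108 and 117 CPM with cytokines, against 187, 171 and 186 CPM without. The treated libraries of both genotypes lay well below all untreated ones, with log2 fold changes of -0.82 (SE 0.07, adjusted p = 2.4e-06) in islets labelled bKO and -0.74 (SE 0.07, adjusted p = 5.5e-06) in control islets. Per kilobase of exon, Srebf1 had the highest level of the 28 genes in untreated control islets (32.1 CPM per kilobase) and was 7th in treated ones (19.2 CPM per kilobase).

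Srebf2, whose product SREBP-2 acts chiefly on cholesterol genes, had 207, 208 and 245 CPM in treated control islets, against 194, 165 and 190 CPM in untreated ones (log2 0.27, SE 0.09, adjusted p = 0.024). In islets labelled bKO it had 204, 221 and 191 CPM with cytokines, against 169, 184 and 183 CPM without, and missed the threshold (log2 0.20, SE 0.09, adjusted p = 0.076), which it passed under DESeq2's size factors (log2 0.27, adjusted p = 0.018). The call in control islets was lost under library totals alone (log2 0.04, adjusted p = 0.73), with no filter (log2 0.24, adjusted p = 0.062) and in 2 of the 12 fits that left out 1 library. Insig2 had 44.8, 42.2 and 40.4 CPM in treated control islets, against 38.4, 35.1 and 33.3 CPM in untreated ones (log2 0.25, SE 0.09, adjusted p = 0.035), with 0.03 (adjusted p = 0.79) under library totals alone. The call in control islets was lost in 5 of the 12 fits that left out 1 library, and with no filter (log2 0.23, adjusted p = 0.080). In islets labelled bKO Insig2 was not called with all libraries (log2 0.14, adjusted p = 0.20), and was called higher without replicate 2 of the treated libraries (log2 0.29, adjusted p = 0.012). Insig1, itself a target of SREBP, was called lower in islets labelled bKO, with 51.5, 57.1 and 48.6 CPM in treated libraries, against 56.9, 75.1 and 78.1 CPM in untreated ones (log2 -0.42, SE 0.16, adjusted p = 0.040). Those groups overlapped, and the call was lost in 6 of the 12 fits that left out 1 library, among them the fit without replicate 2 of the treated libraries (log2 -0.42, adjusted p = 0.052). With all libraries it was lost under DESeq2's size factors, in DESeq2 itself and with the replicate block (adjusted p = 0.076, 0.081 and 0.055). In control islets Insig1 was called lower under library totals alone (log2 -0.51, adjusted p = 0.017). Scap was called in neither genotype (log2 -0.07 in both). Under library totals alone it was called lower in islets labelled bKO (log2 -0.31, adjusted p = 0.0044) and in control islets (log2 -0.30, adjusted p = 0.0057).

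The transport and oxysterol genes held the largest change. Ch25h, cholesterol 25-hydroxylase (chr19:34473778-34475164, a gene of 1 exon), is induced by interferon in macrophages and makes the oxysterol 25-hydroxycholesterol. It had 9.69, 27.1 and 10.4 CPM in treated islets labelled bKO, against 1.65, 1.66 and 1.53 CPM in untreated ones, and 13.6, 6.49 and 8.62 CPM in treated control islets, against 1.38, 2.11 and 2.54 CPM in untreated ones. Every treated library was above every untreated one, with log2 fold changes of 3.28 (SE 0.43, adjusted p = 4.3e-05) in islets labelled bKO and 2.24 (SE 0.41, adjusted p = 0.00060) in control islets. Without the library of 27.1 CPM the value in islets labelled bKO was 2.70 (SE 0.28).

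Abcg1, which exports sterol to lipoproteins (chr17:31057675-31117988), had 292, 157 and 268 CPM in treated islets labelled bKO, against 137, 135 and 138 CPM in untreated ones. In control islets it had 242, 310 and 274 CPM with cytokines, against 135, 128 and 130 CPM without. All treated libraries exceeded all untreated ones, although the 157 CPM of replicate 2 was only a little above them. The log2 fold change was 0.81 (SE 0.18, adjusted p = 0.0021) in islets labelled bKO, and 1.10 (SE 0.10) without replicate 2. In control islets it was 1.07 (SE 0.18, adjusted p = 0.00032). Per kilobase of exon, Abcg1 was 7th of the 28 genes in untreated control islets (18 CPM per kilobase) and 1st in treated ones (37.8 CPM per kilobase).

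Abca1, the exporter that loads sterol onto apolipoprotein A-I, fell slightly. It had 206, 206 and 191 CPM in treated islets labelled bKO, against 233, 237 and 216 CPM in untreated ones (log2 -0.18, SE 0.06, adjusted p = 0.023). In control islets it had 181, 178 and 177 CPM with cytokines, against 229, 218 and 210 CPM without (log2 -0.30, SE 0.06, adjusted p = 0.0016). Groups did not overlap in either genotype. The call in islets labelled bKO was lost under DESeq2's size factors (log2 -0.11, adjusted p = 0.18) and in DESeq2 itself (log2 -0.12, adjusted p = 0.14). In the compared groups only it was lost too (log2 -0.18, adjusted p = 0.0885). It was also lost in 4 of the 12 fits that left out 1 library, among them the fit without replicate 2 of the treated libraries (log2 -0.14, adjusted p = 0.11). Abca1 and Abcg1 are both known as LXR targets and here went opposite ways. Stard4, which carries sterol between membranes, had 14.9, 10.7 and 18.2 CPM in treated control islets, against 24.7, 21.1 and 25.3 CPM in untreated ones (log2 -0.70, SE 0.28, adjusted p = 0.046). That call was lost in 7 of the 12 fits that left out 1 library. It was also lost under DESeq2's size factors and with the replicate block (adjusted p = 0.061 and 0.063). In islets labelled bKO Stard4 had 12.4, 28 and 14.5 CPM with cytokines, against 17.9, 24.4 and 24.7 CPM without, and was called lower only without the library of 28 CPM (log2 -0.67, adjusted p = 0.0099). Npc1, the lysosomal sterol exporter, was not called by edgeR in either genotype (log2 0.22 in islets labelled bKO and 0.14 in control islets). It was called higher in islets labelled bKO under DESeq2's size factors (log2 0.28, adjusted p = 0.028), in DESeq2 itself (log2 0.28, adjusted p = 0.033) and without replicate 1 of the treated libraries (log2 0.30, adjusted p = 0.040). In control islets Npc1 was called higher without replicate 2 of the treated bKO-labelled islets (log2 0.21, adjusted p = 0.0099) and in the compared groups only (log2 0.20, adjusted p = 0.032).

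Markers of islet cells and of other cell types moved with the cytokines too. Of the 10 beta cell markers, 7 fell in both genotypes, with a median log2 fold change of -2.30 in islets labelled bKO and -2.01 in control islets. Ins2 averaged 85083 CPM in treated and 72958 CPM in untreated islets labelled bKO, and 104500 and 76066 CPM in control islets. Ins1 and Iapp had higher means with cytokines in control islets and lower ones in islets labelled bKO. Summed, the 10 markers had 90117 to 162540 CPM in treated and 124580 to 136020 CPM in untreated islets labelled bKO. In control islets the sums were 144690 to 177720 CPM with cytokines and 125280 to 137140 CPM without. Mafa, a beta cell transcription factor, averaged 18.7 CPM in treated and 310 CPM in untreated islets labelled bKO, and 30 CPM in treated and 468 CPM in untreated control islets. All 5 alpha cell markers fell in both genotypes, with sums of 6280 to 7624 CPM in treated and 15497 to 18987 CPM in untreated islets labelled bKO, and 8406 to 11111 CPM in treated and 17791 to 22837 CPM in untreated control islets. Of 10 acinar markers, 4 fell in islets labelled bKO (sums of 783 to 2991 CPM in treated and 2119 to 3475 CPM in untreated libraries) and 9 in control islets (925 to 1508 CPM in treated and 4691 to 7608 CPM in untreated libraries). Of 10 macrophage markers, 9 were higher in both genotypes, and their sum was 570 to 747 CPM in treated and 185 to 251 CPM in untreated islets labelled bKO, and 533 to 630 CPM in treated and 189 to 229 CPM in untreated control islets. All 10 endothelial markers were lower in both, with sums of 286 to 389 CPM in treated and 886 to 918 CPM in untreated islets labelled bKO, and 229 to 324 CPM in treated and 788 to 1018 CPM in untreated control islets. The part of these cell types in the values of the sterol genes was not tested.

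The second comparison set the genotype labels against each other without cytokines. None of the 28 genes was called by edgeR, against 0.0758% of all genes (15 genes, all higher in islets labelled bKO), and DESeq2 called 1 (Pmvk) of the 28 and 126 of all genes. At an unadjusted p below 0.05 edgeR had 1 of the 28, again Pmvk, and 1099 of all genes, and without replicate 2 of the treated bKO-labelled islets it called 59 genes. Log2 differences of the 28 genes ran from -0.32 in Ch25h to 0.42 in Pmvk. Pmvk had 67.0, 64.5 and 65.0 CPM in islets labelled bKO, against 44.2, 56.5 and 46.6 CPM in control islets. The groups did not overlap, and the difference did not pass the adjustment (log2 0.42, SE 0.09, adjusted p = 0.23), whereas it did in DESeq2 (0.42, adjusted p = 0.015). Groups did not overlap in 4 of the 28 genes, Pmvk, Dhcr7 and Srebf1 being higher and Scap lower in islets labelled bKO, against 16.2% of all genes. All 10 acinar markers had lower values in untreated islets labelled bKO than in untreated control islets (median log2 -1.02). None of them was called, and 7 had an unadjusted p below 0.05 in edgeR. Their sums were 2119 to 3475 CPM, against 4691 to 7608 CPM in control islets. The part of acinar cells in the values of the 28 genes was not tested.

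The third comparison set the labels against each other with cytokines. Ebp alone of the 28 genes was called, against 0.232% of all genes (46 genes, with 0.141% higher and 0.0909% lower). The count over all genes was 444 without replicate 1 of the treated bKO-labelled islets and 4 without replicate 3 of the treated controls. Treated islets labelled bKO had 32.8, 30.4 and 32.1 CPM of Ebp, against 23.5, 23.6 and 23.6 CPM in treated control islets. Each library labelled bKO was above each control library, by 1.35-fold (log2 0.43, SE 0.07, adjusted p = 0.033). The size hardly moved between fits, at 0.41 to 0.45 when 1 library was left out, but the call was lost in 10 of those 12 fits (adjusted p of 0.028 to 0.14). The call was also lost under DESeq2's size factors, with no filter and in a fit of the treated groups only (adjusted p = 0.052, 0.053 and 0.36). With the replicate block it was lost too (adjusted p = 0.10). It was kept in 3 of these 7 alternatives, which were DESeq2 itself, the filter of 1 CPM and library totals alone (adjusted p = 0.028 under totals). Replicate 2 of the treated bKO-labelled islets did not stand apart in Ebp. Markers moved with the label as well. All 10 beta cell markers had lower values in treated islets labelled bKO than in treated control islets, 2 of them called (median log2 -0.69, sums of 90117 to 162540 CPM, against 144690 to 177720 CPM). The 6 ductal and 8 stellate cell and pericyte markers all had higher values, none called (medians 0.84 and 0.69), with sums of 1903 to 6092 and 3143 to 8296 CPM in treated islets labelled bKO, against 1346 to 2699 and 1553 to 4403 CPM in treated control islets. Their part in the Ebp value was not tested. The other 27 genes were not called, with values from -0.21 in Abcg1 to 0.72 in Ch25h. With 1 library left out, Abcg1 ran from -0.38 to 0.0057 and Ch25h from 0.064 to 1.06, so neither size is firm. Groups did not overlap in Ebp and in Abca1 only, against 17.7% of all genes, and Abca1 had 206, 206 and 191 CPM, against 181, 178 and 177 CPM in control islets (log2 0.17, SE 0.06, adjusted p = 0.20). The median difference of the 28 genes was 0.12 with all libraries and -0.08 without replicate 2, so its sign rests on that library.

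The last test asked whether the cytokine response itself differed between genotype labels. No gene was called by edgeR among the 28 or among all 19800 (0%), with 2 of the 28 (Pmvk and Ebp) and 2162 of all genes at an unadjusted p below 0.05. Pmvk fell further in islets labelled bKO than in control islets by a log2 difference of -0.51 (SE 0.13, adjusted p = 0.27). For Ebp the difference was 0.37 (SE 0.10, adjusted p = 0.30). DESeq2 called 181 genes, of which 1 was among the 28, Pmvk (log2 -0.53, adjusted p = 0.046). The genes called with cytokines in 1 genotype and not in the other, such as Tm7sf2, Dhcr7, Srebf2 and Acat2, are therefore not shown to respond differently.

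Outside the 28 genes, 47 others of sterol synthesis, uptake, transport and control were tested, a list likewise made with results of these data known. With cytokines 17 rose and 17 fell in islets labelled bKO, and 13 rose and 17 fell in control islets, where 62.4% and 60.6% of all genes tested were called. No genotype difference was called among them, by edgeR, with or without cytokines, where 8 and 2 had an unadjusted p below 0.05, against 3530 and 1099 of all genes. Lipa, the lysosomal acid lipase that frees cholesterol from its esters, averaged 75.6 ± 6.37 CPM in treated and 28.1 ± 1.48 CPM in untreated islets labelled bKO (SD, n = 3 each). In control islets Lipa averaged 74.7 ± 11 CPM with cytokines and 26.5 ± 1.69 CPM without (log2 1.43 in islets labelled bKO and 1.5 in control islets). Cyp7b1, an oxysterol hydroxylase that acts on 25-hydroxycholesterol, the product of Ch25h, rose as well (log2 1.40 and 1.61). Stard5, a sterol carrier, rose by 1.33 in islets labelled bKO and by 1.55 in control islets. Npc2, the lysosomal partner of Npc1, rose by 0.77 and 0.71, and Tspo, a sterol-binding protein of mitochondria, by 1.88 and 1.14. Acat1, the mitochondrial acetoacetyl-CoA thiolase, averaged 32.2 ± 3.10 CPM in treated and 93.7 ± 3.17 CPM in untreated islets labelled bKO, and 28.7 ± 1.14 and 96.0 ± 4.79 CPM in control islets (log2 -1.54 and -1.74). Abca2, a lipid transporter, fell by 1.57 in islets labelled bKO and by 1.26 in control islets. Rnf145, a ubiquitin ligase of sterol control, fell by 0.84 and 0.82. Mbtps1, the protease that makes the first cut of SREBP, fell by 0.76 in islets labelled bKO and by 0.91 in control islets.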

How the data were processed

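Total islet RNA was sequenced by Illumina, per the labels' protocols. The authors deposited raw whole-number counts per gene in a full table, which was used here, and in a filtered table, which was not. The tools named, per the submitters' processing notes, include STAR 2.5.2a and featureCounts 1.6.2, besides cutadapt 1.16, FastQC 0.11.7 and DESeq2 1.30.0, and the genome was GRCm38. The sources used here do not give the annotation or the counting strand. Libraries held 47064061 to 107515565 counts. Replicate numbers are those of the sample titles.

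From these counts, filterByExpr kept 19800 genes, and TMM set their scale. One edgeR quasi-likelihood model of all 12 libraries, with group as its factor, gave every comparison (edgeR 4.0.16, R 4.3.3). The test is two-sided, and Benjamini-Hochberg adjustment ran over all genes tested, with calls below 0.05. Fold changes are edgeR's, levels are CPM of the TMM-scaled library size, and the error is SE or SD. Libraries of a group differed by far more than sampling noise (chi-square per degree of freedom of 14.96 to 213). The edgeR step was tested on simulated data. Positions, exon lengths and overlaps are from GENCODE M21, near copies were searched with blastn 2.17.0 (at least 95% identity over 100 bases), and promoters are RefSeq's for GRCm38.p6.

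Genes were given by library where called in a comparison with groups that do not overlap, except Nsdhl, which was given by range. Other genes were given by library where a result turned on them, chosen after their values were seen. From the wider list up to 4 genes per direction with the smallest adjusted p were named, of which some are not reported here. The 28 genes and all lists were chosen with earlier results of these data known. Each library was left out in turn, and the fits were repeated with a replicate block, on the compared groups only, with DESeq2 1.42.0, with no filter, with a filter of 1 CPM in 3 libraries, and with TMM replaced by DESeq2's size factors or by library totals.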

Additional observations from a re-analysis of the deposited data

How the results depend on the processing

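The filter of 1 CPM in 3 libraries changed no call among the 28 genes in any of the 5 comparisons. With library totals alone, 8 of the 28 genes rose and 7 fell in islets labelled bKO, and 6 rose and 10 fell in control islets. With DESeq2's size factors, 13 rose and 4 fell in islets labelled bKO, and 11 rose and 4 fell in control islets. Over all genes 5711 rose and 6647 fell in islets labelled bKO by TMM, 6293 and 6023 by DESeq2's size factors and 4000 and 8693 by totals. In control islets 5298 rose and 6704 fell by TMM, 6029 and 5874 by size factors and 3737 and 8998 by totals.

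Counts of genes called by genotype label moved most. Without cytokines the 15 genes became 32 with no filter, 126 in DESeq2 (1 of the 28 higher) and 121 in a fit of the compared groups only. With cytokines the 46 genes became 190 with no filter, 674 in DESeq2, 0 with the compared groups only and 7 with the replicate block, and the call of Ebp was lost (0 of the 28 higher) under DESeq2's size factors, no filter, the compared groups only and the block. For the difference in response the 0 genes became 1 with no filter and 181 in DESeq2 (1 of the 28 lower). The causes were not tested.

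Leaving out 1 library gave, with cytokines, 8 to 12 of the 28 genes higher and 4 to 9 lower in islets labelled bKO, and 6 to 13 higher and 3 to 6 lower in control islets. All genes called ran from 11050 to 12634 and from 10846 to 13164. By genotype label they ran from 12 to 59 without cytokines (0 to 1 of the 28 higher) and from 4 to 444 with them (0 to 1 higher). For the difference in response they ran from 0 to 3. Over all alternatives, single genes lost a call in 86 and gained one in 33 of 2632 values, and Cyp51 in islets labelled bKO ran from -0.41 (adjusted p = 0.024, reversed, without treated replicate 2) to 0.35 when 1 library was left out. Signs also changed in 121 values, of 65 of the 140 gene and comparison pairs, that were not called either way, with sizes of up to 0.43.

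Whether libraries of the same replicate number share a mouse is not known. Deviations of same-numbered libraries correlated at -0.49 to 0.10. Between treated and untreated islets labelled bKO, replicates 2 and 3 correlated best with their own number (0.086 and 0.096). No other library did so in any of the comparisons, and this does not settle whether numbers are pairs. With the number as a replicate block, 9 of the 28 genes rose and 5 fell in islets labelled bKO, and 10 rose and 5 fell in control islets.

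Limits are the 3 libraries per group, mice shared in an unknown way, 1 treated library that stands farthest from its group, and unknown counting strand. Replicate 2 of the treated controls also differed more from its group (chi-square per degree of freedom of 82.1 and 63.1) than replicates 1 and 3 did from each other (31.2). The lowest count of any of the 28 genes in any library was 88.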
